A study of Arabidopsis thaliana with 6 samples.

Results

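The genes described here were the cysteine-rich receptor-like kinases (CRKs) of *Arabidopsis thaliana*, taken as the protein-coding genes of the deposited table whose description holds the words cysteine-rich receptor-like protein kinase or cysteine-rich RLK. The rule found 41 of 32998 listed genes, and it used the descriptions but none of the measured values. Transcript levels were measured by RNA-seq in complete seedlings 12 days old, 3 libraries of WT (Col-0) and 3 of the mutant *mdf-1*, all from plates with Murashige and Skoog medium and sucrose and without further treatment. *mdf-1* is a single T-DNA line with an insertion in an intron of *MDF*, a gene for a splicing factor of the U4/U6.U5 tri-snRNP. The comparison asked how loss of MDF function changed transcript levels.

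CRKs are receptor kinases of the plasma membrane. Outside the cell they carry DUF26 domains with conserved cysteines, and inside the cell a serine/threonine kinase domain. Many of them are induced by pathogens, salicylic acid (SA) and reactive oxygen species (ROS), and some act together with the receptor complexes for bacterial patterns and with the NADPH oxidases (RBOH proteins) that make extracellular ROS. Most of the family lies in tandem arrays, that is, neighbouring copies that arose by local duplication. A common element in the promoters of such defense genes is the W-box, the binding sequence of WRKY transcription factors.

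The promoters of 6 CRKs are printed here as examples with different numbers of W-boxes and different changes in *mdf-1*, and they were chosen with these values known. The windows are the 250 bases before the annotated start of each gene, read 5′ to 3′ on the strand of the gene from the TAIR10.1 assembly of RefSeq, which gives all 41 CRKs the same start and end as the deposited TAIR10 positions. Capitals mark W-boxes, searched as TTGACC and TTGACT and, for the other strand, as GGTCAA and AGTCAA, with overlapping matches counted separately. The windows of *CRK5* (chr4:12120221-12120470, minus strand, 3 W-boxes), *CRK6* (chr4:12121119-12121368, plus strand, 2), *CRK37* (chr4:2238120-2238369, plus strand, 2 that overlap) and *CRK7* (chr4:12125414-12125663, plus strand, none) belong to genes that rose strongly. *CRK11* (chr4:12143859-12144108, minus strand) had the most W-boxes of the family, 4, and rose little. *CRK29* (chr4:11405236-11405485, minus strand, 1 W-box) fell.
CRK5: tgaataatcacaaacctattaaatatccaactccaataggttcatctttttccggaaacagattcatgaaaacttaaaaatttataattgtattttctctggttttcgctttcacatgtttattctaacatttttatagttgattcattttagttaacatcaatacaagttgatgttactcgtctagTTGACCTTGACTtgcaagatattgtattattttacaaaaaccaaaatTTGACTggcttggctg
CRK6: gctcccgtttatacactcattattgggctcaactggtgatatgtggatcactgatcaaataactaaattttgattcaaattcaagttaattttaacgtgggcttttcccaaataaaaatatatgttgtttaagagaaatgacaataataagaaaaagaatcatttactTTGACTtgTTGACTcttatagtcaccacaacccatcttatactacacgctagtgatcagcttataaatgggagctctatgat
CRK37: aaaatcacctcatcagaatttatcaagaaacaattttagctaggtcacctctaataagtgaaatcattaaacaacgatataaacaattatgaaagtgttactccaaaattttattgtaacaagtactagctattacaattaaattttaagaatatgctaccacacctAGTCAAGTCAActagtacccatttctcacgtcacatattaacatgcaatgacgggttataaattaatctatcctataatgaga
CRK7: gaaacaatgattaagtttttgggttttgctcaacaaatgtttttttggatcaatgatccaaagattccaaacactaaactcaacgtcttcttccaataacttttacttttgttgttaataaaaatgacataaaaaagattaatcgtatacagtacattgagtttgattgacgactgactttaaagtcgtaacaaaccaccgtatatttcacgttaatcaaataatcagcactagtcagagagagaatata
CRK11: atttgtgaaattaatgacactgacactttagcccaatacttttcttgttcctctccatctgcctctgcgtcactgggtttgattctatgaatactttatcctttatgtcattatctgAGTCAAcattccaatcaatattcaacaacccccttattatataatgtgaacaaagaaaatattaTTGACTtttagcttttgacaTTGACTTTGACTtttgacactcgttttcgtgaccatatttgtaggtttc
CRK29: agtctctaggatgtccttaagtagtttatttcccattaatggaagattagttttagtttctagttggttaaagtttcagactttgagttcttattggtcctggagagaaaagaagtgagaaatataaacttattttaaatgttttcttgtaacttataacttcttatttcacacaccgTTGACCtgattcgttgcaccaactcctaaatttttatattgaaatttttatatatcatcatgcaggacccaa

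W-boxes were found in a larger share of the CRK promoters than of all promoters. At least 1 was found in 27 of the 41 windows (65.9%), against 28.4% of the 27419 windows of all protein-coding genes. Of the 25 CRKs that were higher in *mdf-1*, 16 held a W-box (64.0%), as did 4 of the 7 that were lower (57.1%) and 5 of the 6 that did not pass the test. Windows with 2 or more W-boxes were found for 11 CRKs (26.8%), against 6.2% of all windows. Of these 11, 9 belonged to the 25 CRKs that were higher (36.0%) and 2 to the 6 that did not pass (33.3%), so these shares were alike. None belonged to the 7 that were lower, a small group. *CRK7*, with the largest change of the family, had no match, and neither had *CRK12*, *CRK13* or *CRK22*, which all rose. A match is a stretch of letters and not a measured binding site, and windows of neighbouring copies are not independent.

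Between 44738352 and 50088386 reads were counted on genes in each library. Counts were compared between *mdf-1* and WT with edgeR, and a gene was called higher or lower at a Benjamini-Hochberg adjusted p below 0.05 over the 22397 genes with enough reads to be tested. So many genes changed that 33.5% of all tested genes were called higher and 33.9% lower. With scaling by total counts the split of all genes was 24.8% higher and 41.7% lower, because the median change moved to -0.14 on the log2 scale from 0.01. *MDF* itself (AT5G16780, listed as DOT2) was at 3443, 3465 and 3465 counts in *mdf-1* and at 3305, 3136 and 3435 in WT, a log2 fold change of 0.32 with an adjusted p of 5.86e-04. Counts over the whole gene do not show on which side of the insertion the reads lay. By RT-qPCR on root tips, the paper found the part upstream of the insertion still expressed in *mdf-1*. The part downstream, which holds the conserved SART1 domain, was not expressed there. Markers of root cells were lower in *mdf-1* (all 5 for root hairs, all 6 for the endodermis and 3 of 4 for the root meristem). Their summed levels were 6.54 to 8.65 CPM (counts scaled to the size of the library) in *mdf-1* against 30.2 to 41.1 in WT for root hairs, 17.9 to 21.8 against 78.2 to 95.1 for the endodermis, and 3.84 to 4.52 against 20.0 to 25 for the meristem. Photosynthesis markers together were at 31700 to 41300 CPM against 28100 to 32200, with 3 of 6 higher. In whole seedlings, fewer cells of a type and less RNA per cell cannot be told apart, and the part of this shift in the CRK results was not tested.

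CRK transcripts were mostly higher in *mdf-1*. Of the 41 CRKs, 38 had enough reads, and of these 25 were higher (65.8%, against 33.5% of all tested genes) and 7 were lower (18.4%, against 33.9%). The median log2 fold change of the 38 was 0.90, against 0.01 for all tested genes. Calls with at least a 2-fold change (log2 fold change of 1 or more) were made for 19 CRKs in the upward direction (50%, against 7.91% of all genes) and for 3 in the downward direction (7.89%, against 13.8%). The 3 libraries of *mdf-1* and the 3 of WT did not overlap in CPM for 32 of the 38 (84.2%, against 73.2% of all tested genes). Tested protein-coding genes of similar exonic length, between 2162 and 2598 bases, were 26.7% higher and 39.1% lower. The sum over all CRKs in FPKM, that is, fragments scaled to transcript length and library size, was 242 ± 21.0 (SD, n = 3) in *mdf-1* and 148 ± 8.09 in WT.

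**Figure D1:**
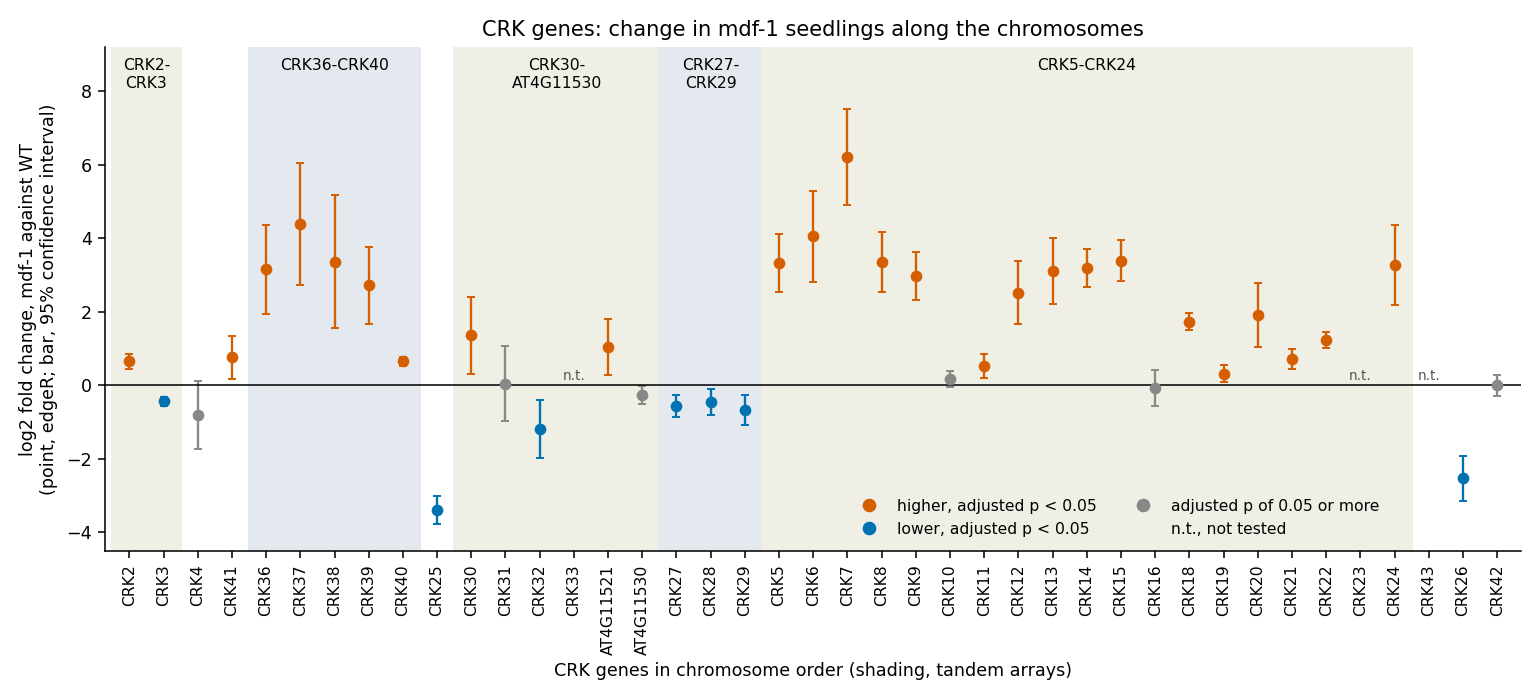
Log2 fold change of each CRK in *mdf-1* against WT (point, edgeR, with the 95% confidence interval as bar; 3 libraries per genotype) in chromosome order, with tandem arrays shaded and the 3 CRKs that were not tested marked n.t. The 5 CRKs of the array from *CRK36* to *CRK40* and 16 of the 18 tested in the array from *CRK5* to *CRK24* were higher, the 3 from *CRK27* to *CRK29* were lower, and *CRK25* and *CRK26* had the most negative values. The higher CRKs include *CRK6*, *CRK7*, *CRK8*, *CRK24*, *CRK37*, *CRK38* and *CRK39*, whose entry into the test rested mainly on *mdf-1*.

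The filter on low counts bears on these numbers. Of the tested CRKs, *CRK6*, *CRK7*, *CRK8*, *CRK24*, *CRK37*, *CRK38* and *CRK39* reached its minimum in all libraries of *mdf-1* but not in all of WT. Their entry into the test thus rested mainly on *mdf-1*, and all 7 were called higher. All 7 are also among the 19 CRKs called higher with at least a 2-fold change, so the filter bears on that share too. Among the other 31, 18 were higher (58.1%), 7 were lower and the median log2 fold change was 0.65. These 31 include *CRK26*, called lower, which reached the minimum in all libraries of WT but not in all of *mdf-1*. Without it too, 18 of 30 were higher (60.0%) and 6 lower. Where at least 10 counts were asked of every library, 29 CRKs were left, of which 18 were higher and 7 lower with a median of 0.64. Of the 32 called CRKs, 26 (21 higher and 5 lower) kept the call in every alternative fit that tested them, and the others are named where they are described. Within the *mdf-1* group, 20 of the 25 higher CRKs had their highest level in replicate 1 and 23 had their lowest in replicate 3. The median log2 CPM of the tested CRKs was 2.69, 2.54 and 2.24 in replicates 1, 2 and 3 of *mdf-1* and 0.41, 0.67 and 0.47 in WT. The groups stayed apart in each of these medians. Without replicate 1 of *mdf-1*, the median log2 fold change was 0.68.

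The largest increases were found among CRKs below 1 FPKM in WT. Of the 22 tested CRKs below 1 FPKM in WT, 17 were higher and 2 lower, with a median log2 fold change of 3.05. The 17 include all 7 CRKs whose entry into the test rested mainly on *mdf-1*, and the 2 include *CRK26*, whose entry rested mainly on WT. The filter thus bears on these counts and on this median. Of the 12 at 5 FPKM or more, 7 were higher and 3 lower, with a median of 0.42 and no value above 1.73. In *mdf-1*, 27 CRKs were at 1 FPKM or more, against 16 in WT. The WT level that forms these groups also enters the fold change, so they are a description and were not tested.

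**Figure D2:**
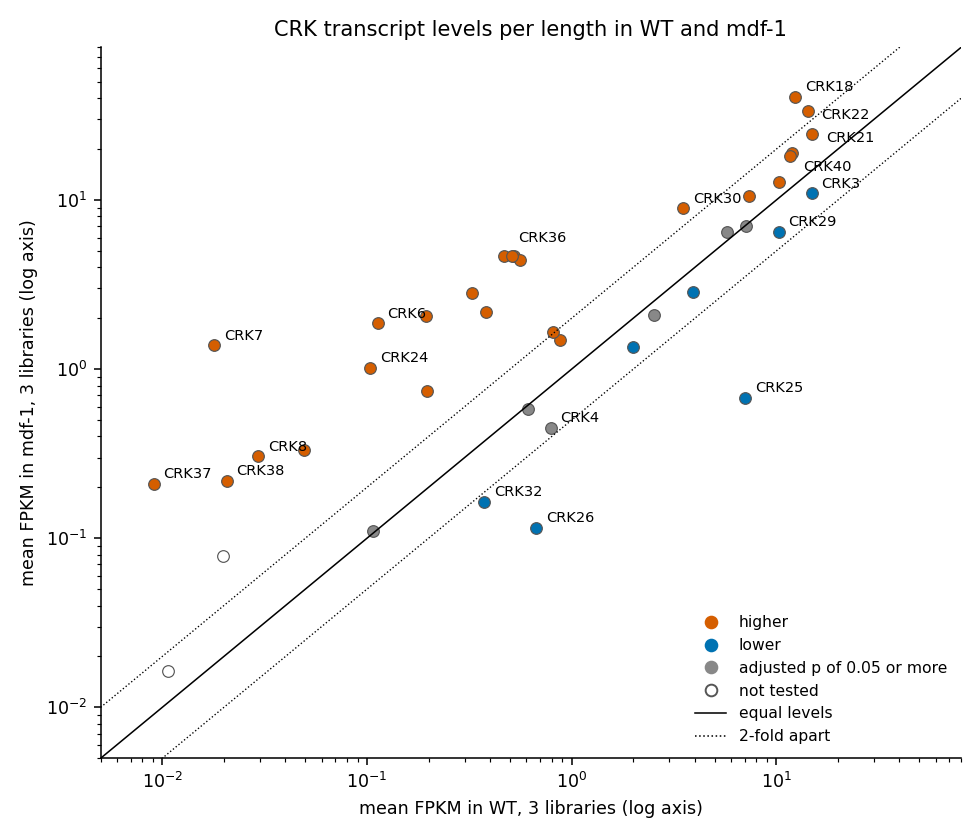
Mean FPKM of each CRK in WT (horizontal, log axis) and in *mdf-1* (vertical, log axis), 3 libraries each, coloured by the edgeR call, with lines at equal levels and at 2-fold differences; *CRK33*, at 0 in every library, is not drawn. CRKs below 1 FPKM in WT lie up to a log2 fold change of 6.21 above the line of equal levels, whereas none of those at 5 FPKM or more lies further above it than 1.73, and the point furthest below it is *CRK25*, at 7.07 FPKM in WT and 0.672 in *mdf-1*.

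Among the CRKs with a known part in ROS signaling, *CRK7* and *CRK6* changed most. Both are needed for tolerance of ROS produced outside the cell. *CRK7* (AT4G23150, chr4:12125664-12128490, plus strand) was at 178, 108 and 113 counts in *mdf-1* and at 5, 1 and 0 counts in WT. It was barely detected in WT and clearly present in every *mdf-1* library. The ratio of the summed, scaled counts was 78.8 with a 95% counting interval of 35.9 to 216, and the log2 fold change was 6.21 ± 0.56 (SE) with an adjusted p of 4.46e-05. Without replicate 1 of WT, which held 5 of the 6 WT counts, the fitted value was 7.96. *CRK6* (AT4G23140, chr4:12121369-12124564, plus strand) was at 268, 148 and 211 counts in *mdf-1* and at 17, 24 and 3 in WT, so that the lowest mutant library was far above the highest WT library. Its log2 fold change was 4.06 ± 0.52 (SE) with an adjusted p of 4.53e-04. Of the 50-base stretches in its exons, 22.0% occur elsewhere in the genome, most of them in the neighbour *CRK8*, so that reads of *CRK6* and *CRK8* may have been split between them. *CRK8* (AT4G23160, chr4:12129485-12134209) also rose, from 5, 9 and 4 counts in WT to 64, 45 and 50 in *mdf-1*.

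*CRK2*, which phosphorylates the NADPH oxidase RBOHD, was one of the abundant members in both genotypes. Its counts (AT1G70520, chr1:26584729-26587628) were 2182, 1941 and 1744 in *mdf-1* and 1429, 1451 and 1523 in WT. All mutant libraries were above all WT libraries, and the 1.58-fold difference had a log2 fold change of 0.66 ± 0.09 (SE) and an adjusted p of 2.79e-04. Its direct neighbour *CRK3* (AT1G70530, chr1:26588391-26591776) moved the other way. It was at 1310, 1332 and 1422 counts in *mdf-1* and at 2152, 2024 and 2352 in WT, again without overlap, with a log2 fold change of -0.44 ± 0.05 (SE) and an adjusted p of 1.89e-04. *RBOHD*, the oxidase that CRK2 acts on, was at 83.4, 76.0 and 63.2 CPM in *mdf-1* and at 73.2, 73.3 and 83.2 CPM in WT. The groups overlapped, and the log2 fold change was -0.05 with a 95% confidence interval from -0.29 to 0.20.

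CRKs that are tied to the pattern receptor complexes went in opposite directions. *CRK36*, whose protein binds and phosphorylates the cytoplasmic kinase BIK1, was at 643, 494 and 224 counts in *mdf-1* and at 49, 85 and 47 in WT (AT4G04490, chr4:2231717-2234689). The *mdf-1* libraries differed among themselves by more than 2-fold, but each was well above WT, and the log2 fold change was 3.16 ± 0.49 (SE) with an adjusted p of 0.00193. *CRK28*, whose protein associates with the co-receptor BAK1, was at 394, 405 and 329 counts in *mdf-1* and at 543, 732 and 552 in WT (AT4G21400, chr4:11398857-11402180). The groups did not overlap but were close, with a log2 fold change of -0.45 ± 0.16 (SE) and an adjusted p of 0.0331. The call was lost with replicate 1 (-0.49, adjusted p = 0.0569) or replicate 3 of *mdf-1* (-0.35, 0.0723) left out, and likewise with replicate 2 of WT left out (-0.28, 0.106). *CRK29* (AT4G21410, chr4:11401711-11405235), a close relative that lies next to it, was at 1016, 829 and 721 counts in *mdf-1* and at 1553, 1843 and 1415 in WT. It was lower in every mutant library, with a log2 fold change of -0.66 ± 0.17 (SE) and an adjusted p of 0.0114. The annotated ends of *CRK28* and *CRK29* overlap on the same strand, so their counts are not fully separate.

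**Figure D3:**
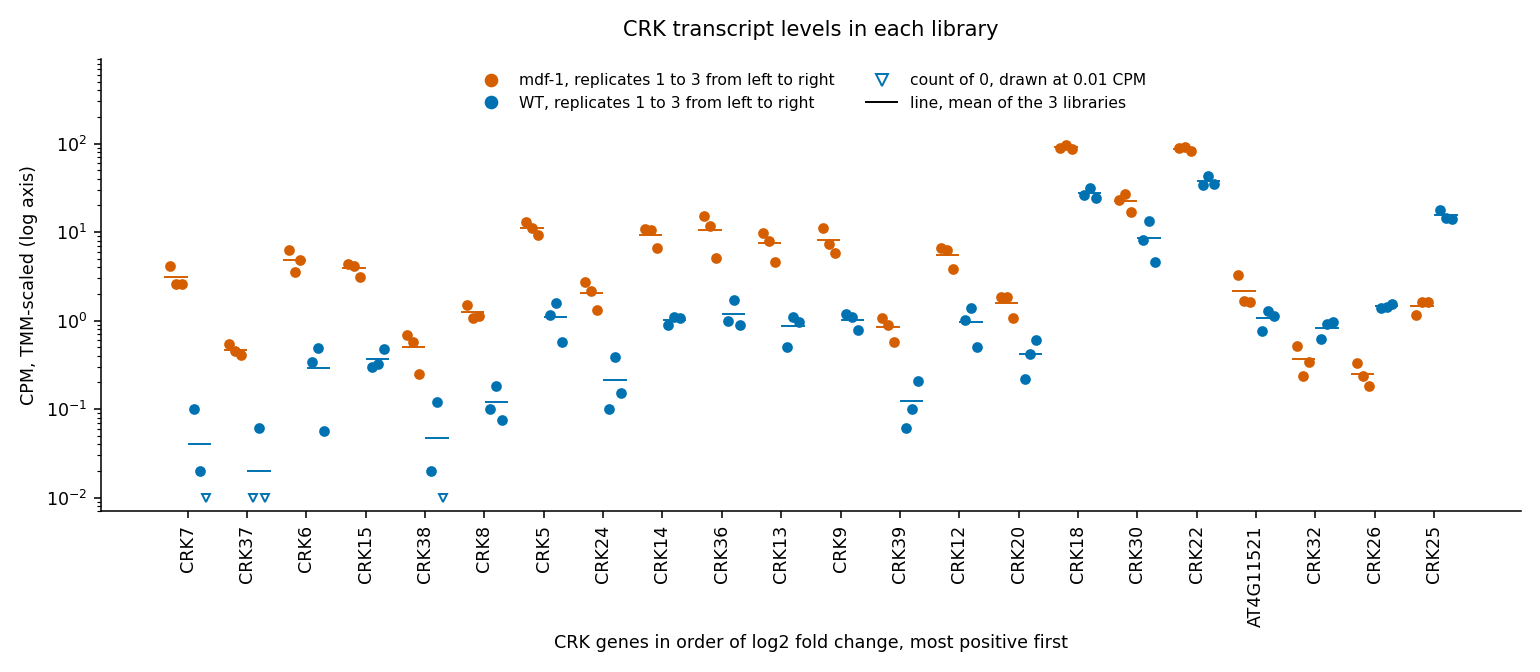
CPM of each library (points, log axis; orange for *mdf-1*, blue for WT; short lines for the means of 3 libraries) for the 22 CRKs with an adjusted p below 0.05 and at least a 2-fold change, with counts of 0 drawn as open triangles at 0.01 CPM. In all 22 the groups are apart, and *CRK7*, *CRK37* and *CRK38* have WT libraries without a read.

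CRKs that trigger cell death or resistance when overexpressed did not move as one group. *CRK5*, *CRK4*, *CRK19* and *CRK20* cause cell death when their expression is induced, and *CRK13* gives SA-dependent resistance to *Pseudomonas* when overexpressed. *CRK5* (AT4G23130, chr4:12117491-12120220) was at 553, 462 and 406 counts in *mdf-1* and at 57, 79 and 30 in WT. This was a 10.1-fold difference with no overlap, with a log2 fold change of 3.33 ± 0.33 (SE) and an adjusted p of 1.35e-04. *CRK13* (AT4G23210, chr4:12148673-12151638) was at 421, 330 and 202 counts in *mdf-1* and at 25, 55 and 51 in WT, an 8.65-fold difference with an adjusted p of 3.36e-04. Its exons share 365 of their 50-base stretches (15.4%) with *CRK22*, which was more abundant in every library, so part of the *CRK13* count may come from *CRK22*. *CRK20* (AT4G23280, chr4:12174733-12177576) was at 78, 78 and 47 counts in *mdf-1* and at 11, 21 and 32 in WT. It was higher in every mutant library, with a log2 fold change of 1.92 ± 0.38 (SE) and an adjusted p of 0.00220. A share of 6.72% of the 50-base stretches in the exons of *CRK20* occurs elsewhere. Of these, 62 lie in the far more abundant neighbour *CRK19*, so part of the *CRK20* count may come from *CRK19*.

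The other cell death CRKs changed little or not reliably. *CRK19* (AT4G23270, chr4:12170955-12174297), abundant in WT, was at 1598, 1443 and 1256 counts in *mdf-1* and at 1352, 1269 and 1487 in WT. The counts overlapped, the CPM values did not, and the log2 fold change was 0.31 ± 0.10 (SE) with an adjusted p of 0.0211. The call was lost with scaling by total counts (0.17, adjusted p = 0.149) and without replicate 2 of *mdf-1* (0.0607), replicate 1 of WT (0.0568) or replicate 2 of WT (0.0746). *CRK4* (AT3G45860, chr3:16863088-16866261) was at 57, 22 and 71 counts in *mdf-1* and at 135, 75 and 99 in WT. Its levels in CPM overlapped, and the log2 fold change of -0.81 had a 95% confidence interval from -1.73 to 0.12 and an adjusted p of 0.107. Without replicate 3 of *mdf-1*, the value was -1.12 with an adjusted p of 0.0445. *CRK10*, of which a gain-of-function allele dwarfs the plant, was at 808, 645 and 678 counts in *mdf-1* and at 717, 688 and 833 in WT (AT4G23180, chr4:12137995-12140930). The groups overlapped, with a log2 fold change of 0.18 and a 95% confidence interval from -0.05 to 0.40.

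The most abundant CRKs in WT, per length, were *CRK21* with 14.97 ± 2.30 FPKM (SD, n = 3), *CRK3* with 14.9 ± 0.643, *CRK22* with 14.3 ± 1.77, *CRK18* with 12.4 ± 1.70 and *CRK2* with 12.0 ± 0.114. The order among the first 3 lay within their spread. In *mdf-1*, *CRK18* took the first place with 40.8 ± 2.01 FPKM, followed by *CRK22* with 33.5 ± 1.89 and *CRK21* with 24.5 ± 1.70. *CRK18* (AT4G23260, chr4:12167416-12170080) was at 3756, 4039 and 3847 counts in *mdf-1* and at 1297, 1570 and 1295 in WT. The libraries of each genotype lay close together, and the 3.31-fold rise (log2 fold change of 1.73 ± 0.10, SE) had an adjusted p of 6.26e-06. *CRK22* (AT4G23300, chr4:12181625-12184774) was at 3806, 3861 and 3596 counts in *mdf-1* and at 1702, 2115 and 1852 in WT, a 2.36-fold rise with an adjusted p of 1.71e-05. *CRK21* (AT4G23290, chr4:12177734-12180936) was at 2463, 2654 and 2404 counts in *mdf-1* and at 1678, 2075 and 1661 in WT. These 3 neighbours of the largest array were thus higher in every mutant library, *CRK21* by 1.65-fold with an adjusted p of 8.35e-04. *CRK40* and *CRK11* rose less, by 1.57-fold and 1.45-fold, with adjusted p of 1.70e-05 and 0.0110.

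Strong decreases were rare. *CRK25* (AT4G05200, chr4:2679723-2682384), not part of an array, was at 49, 68 and 72 counts in *mdf-1* and at 889, 710 and 743 in WT. The mutant libraries were far below WT, by 10.5-fold on average, with a log2 fold change of -3.39 ± 0.17 (SE) and an adjusted p of 2.82e-06. It ranked 11 among the 41 CRKs by FPKM in WT and 29 in *mdf-1*. Its annotated span shares 492 bases with *KIN14D* (AT4G05190), a kinesin gene on the opposite strand, which was at 339, 424 and 562 counts in *mdf-1* and at 1119, 1180 and 1242 in WT (log2 fold change of -1.18). Whether strand was used in the counting is not given in the sources used here, so part of the *CRK25* count may come from *KIN14D*. *CRK26* (AT4G38830, chr4:18122175-18124943), also single, was at 14, 10 and 8 counts in *mdf-1* and at 69, 71 and 82 in WT, a 5.79-fold difference without overlap and with an adjusted p of 7.91e-05. *CRK32* (AT4G11480, chr4:6971401-6973962) was at 22, 10 and 15 counts in *mdf-1* and at 31, 45 and 51 in WT. Its log2 fold change was -1.18 ± 0.34 (SE) with an adjusted p of 0.0147, and the call was lost without replicate 3 of WT (-1.06, adjusted p = 0.0557). *CRK27* fell by 0.56 on the log2 scale, with an adjusted p of 0.00538.

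The 35 CRKs in tandem arrays lie in 5 arrays, 4 of them on chromosome 4, where neighbours within 100 kb were joined. The array from *CRK5* to *CRK24* (chr4:12117491-12191704) holds 19 CRKs, of which 18 were tested, 16 were higher and none was lower, with a median log2 fold change of 2.75 and a range from -0.07 to 6.21. The entry of *CRK6*, *CRK7*, *CRK8* and *CRK24* into the test rested mainly on *mdf-1*, so the filter bears on these values. The 1 other tested gene of this array, *EMB1290*, was left out by the wording of its description and was also higher (0.89, adjusted p of 3.03e-05). Whether it belongs to the CRK family was not examined, so it is not a comparison with genes outside the family. The 2 tested CRKs of the array that did not pass, *CRK10* and *CRK16*, lie between members that rose. *CRK16* was at 48, 45 and 59 counts in *mdf-1* and at 53, 74 and 62 in WT, whereas its neighbour *CRK15* (AT4G23230, chr4:12157827-12160279) was at 188, 173 and 137 in *mdf-1* and at 15, 16 and 25 in WT. The groups overlapped for *CRK16*, and those of *CRK15* differed by 10.5-fold with an adjusted p of 1.25e-05. *CRK16* and *EMB1290* are annotated with a shared stretch of 1190 bases on the same strand, so their counts are not fully separate. *CRK14*, the next gene after *CRK15*, was at 467, 435 and 290 counts in *mdf-1* and at 44, 55 and 56 in WT. It rose by 9.13-fold, with an adjusted p of 1.25e-05.

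*CRK9*, *CRK12* and *CRK24* of the same array also rose. *CRK9* was at 476, 303 and 256 counts in *mdf-1* and at 59, 54 and 42 in WT. *CRK12* was at 278, 262 and 169 counts in *mdf-1* and at 50, 69 and 27 in WT. *CRK24* was at 116, 91 and 58 counts in *mdf-1* and at 5, 19 and 8 in WT. In each of these the lowest mutant library was above the highest WT library, and the log2 fold changes were 2.98, 2.52 and 3.28, with adjusted p of 6.95e-05, 6.54e-04 and 4.34e-04. *CRK23* did not reach the filter, with 13, 8 and 10 counts in *mdf-1* and 6, 3 and 0 in WT. With no filter on low counts it passed (log2 fold change of 1.98, adjusted p = 0.0441), as it did without replicate 1 of WT (2.93, 0.0252), but not with DESeq2 (2.01, 0.0598) or with any of the other libraries left out that brought it into the test (adjusted p from 0.0595 to 0.0916).

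In the array from *CRK36* to *CRK40* (chr4:2231717-2292965) all 5 CRKs were higher, with a median log2 fold change of 3.16. The entry of *CRK37*, *CRK38* and *CRK39* into the test rested mainly on *mdf-1*, so the filter bears on this count and median. *CRK37* (AT4G04500) was at 23, 19 and 18 counts in *mdf-1* and at 0, 3 and 0 in WT, a ratio of 23.7 with a 95% counting interval of 7.73 to 118. *CRK38* (AT4G04510) was at 29, 24 and 11 counts in *mdf-1* and at 1, 6 and 0 in WT, a ratio of 10.8 with an interval of 4.97 to 28.0. Both were rare transcripts, with fitted log2 fold changes of 4.39 and 3.37 and adjusted p of 8.62e-04 and 0.00551. Without replicate 2 of WT the fitted values were 7.44 and 5.33. *CRK39* was at 45, 37 and 25 counts in *mdf-1* and at 3, 5 and 11 in WT, with a log2 fold change of 2.72. A share of 5.38% of its exonic 50-base stretches occurs elsewhere, mostly in the abundant *CRK40*. *CRK40* was at 2515, 2351 and 2443 counts in *mdf-1* and at 1838, 1769 and 1909 in WT, and thus higher in every mutant library.

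The other arrays differed from these. In the array from *CRK30* to AT4G11530 (chr4:6963521-6989793), 2 of 5 tested CRKs were higher and 1 was lower, with a median log2 fold change of 0.04. *CRK30* (AT4G11460) was at 982, 1114 and 747 counts in *mdf-1* and at 399, 663 and 245 in WT, apart but with a wide spread in WT. Its log2 fold change was 1.36 ± 0.41 (SE) with an adjusted p of 0.0322, and the call was lost without any 1 of the *mdf-1* replicates (adjusted p from 0.0587 to 0.0906), without replicate 1 of WT (0.0984) and with no filter on low counts (0.0579). The table gives the name *CRK34* to 2 genes of this array. AT4G11521, an intronless model with 798 coding bases, was at 138, 69 and 72 counts in *mdf-1* and at 38, 64 and 59 in WT. It was called higher (1.04, adjusted p = 0.0220), with its highest level in replicate 1 of *mdf-1*, without which the value was 0.64 (adjusted p = 0.0676), and the call was also lost without replicate 1 (0.0761) or replicate 3 of WT (0.0551). AT4G11530, which starts 19 bases after it, was at 232, 221 and 217 counts in *mdf-1* and at 322, 289 and 344 in WT. It was lower in every mutant library by a log2 fold change of -0.26 that did not pass (adjusted p = 0.0511), but passed with scaling by RLE (0.0482), upper quartile (0.0256) or total counts (0.00931) and with 10 counts in every library (0.0362).

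The 3 CRKs from *CRK27* to *CRK29* (chr4:11319139-11405235) were all lower, with a median log2 fold change of -0.56. Among the 12 other tested protein-coding genes in this interval, 3 were higher and 4 lower, with a median of -0.04. Joined within 50 kb instead, this array held *CRK28* and *CRK29* only, and the other arrays were as before. Of the 6 CRKs outside arrays, 5 were tested. Besides *CRK25*, *CRK26* and *CRK4* these were *CRK41* and *CRK42*. *CRK41* was at 194, 144 and 123 counts in *mdf-1* and at 88, 85 and 152 in WT, the only called CRK whose groups overlapped. Its log2 fold change of 0.76 (adjusted p = 0.0292) lost the call with scaling by total counts (0.0658) and without replicate 1 (0.0956) or 2 of *mdf-1* (0.0597) or replicate 1 (0.0997) or 2 of WT (0.0967). *CRK42* was at 765, 773 and 1072 counts in *mdf-1* and at 972, 962 and 1158 in WT, with overlap and a 95% confidence interval from -0.28 to 0.28. *CRK31*, at 7 to 17 counts in every library, did not pass. The CRKs with the fewest counts were *CRK43*, with 4 in all of *mdf-1* and 3 in all of WT, and *CRK33*, with no count in any library, which allows up to 3 counts per library, 6.71e-06% or less of its reads.

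In other families of receptor kinases, higher genes were a smaller share. Lectin receptor kinases, among them the receptor for extracellular ATP, were higher for 16 (29.6%, against 33.5% of all tested genes) and lower for 18 (33.3%, against 33.9%) of 54 tested genes. Both shares were near those of all genes, and the median log2 fold change was -0.03. Wall-associated kinases, which bind pectin, were higher for 7 (35.0%) and lower for 8 (40.0%) of 20, with a median of 0.21. Leucine-rich repeat receptor kinases, many of them receptors for growth signals, were higher for 20 and lower for 84 of 133, with a median of -0.60. The DUF26 domain is also carried by 2 groups of proteins without a kinase. Of the 8 plasmodesmata-located proteins (PDLPs), which regulate transport between cells, 6 were lower and 1 was higher, with a median of -0.75. *PDLP4* was at 0.399, 0.335 and 0.454 CPM in *mdf-1* and at 3.90, 2.64 and 2.68 CPM in WT, and *PDLP1*, the member that rose, had a log2 fold change of 1.47 with an adjusted p of 0.00128. Of the 11 tested cysteine-rich repeat secretory proteins, a list that shares 6 genes with the PDLPs, 2 were higher (18.2%) and 6 lower (54.5%). Of the 39 listed, 24 had no count in any library. Of the 25 higher CRKs, 7 entered the test mainly through *mdf-1*, and 18 of the other 31 were higher (58.1%). Where at least 10 counts were asked of every library, 62.1% of the tested CRKs were higher. In that fit the share was 29.8% for lectin receptor kinases, 35.3% for wall-associated kinases and 16.1% for leucine-rich repeat receptor kinases. No test of the difference between families was made.

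**Figure D4:**
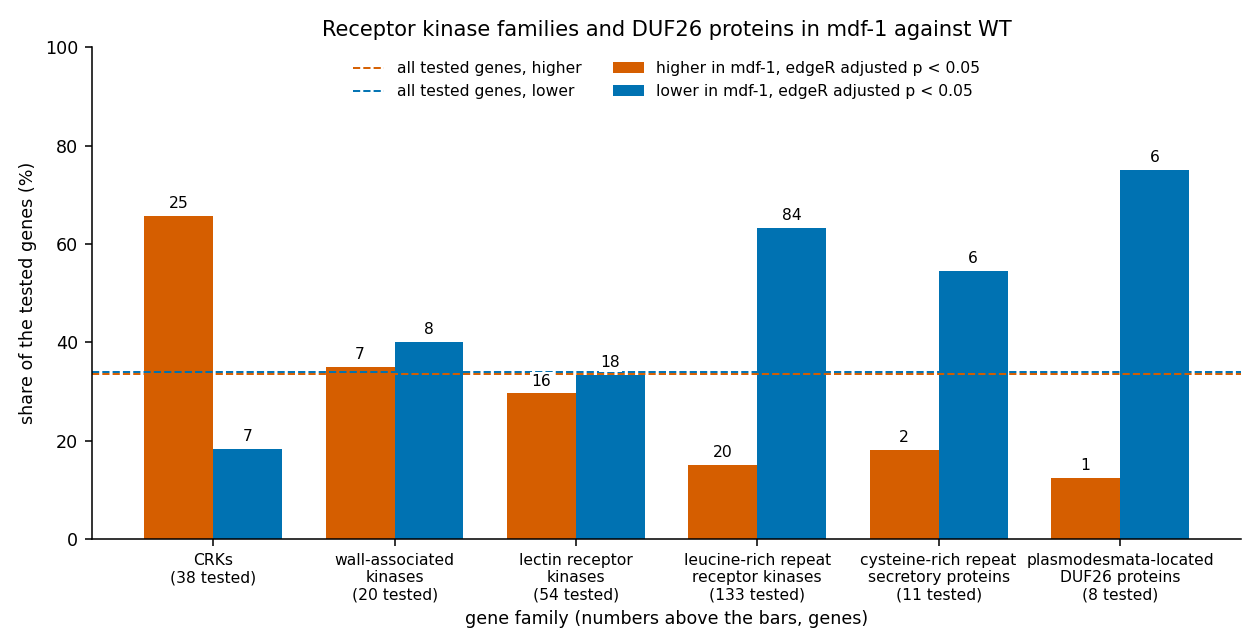
Share of the tested genes of each family (bars from 0, with the number of genes above) that was higher or lower in *mdf-1* at an edgeR adjusted p below 0.05, with dashed lines at the shares of all tested genes, 33.5% and 33.9%. The CRKs had the highest share of higher genes of the 6 families drawn, 25 of 38, and the leucine-rich repeat receptor kinases were lower for 84 of 133. Of the 25 higher CRKs, 7 entered the test mainly through *mdf-1*, and 18 of the other 31 were higher.

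The lists of pattern receptors and of NADPH oxidases hold some known partners of CRKs and other genes of the same kinds. Pattern receptors and their kinases partly rose. NADPH oxidases partly fell, but *RBOHD*, the oxidase that CRK2 acts on, did not pass the test. Of 12 genes for pattern receptors and partner kinases, 7 were higher (58.3%, against 33.5% of all tested genes) and 1 was lower, with a median log2 fold change of 0.52. *BIK1*, the substrate of CRK36, was at 57.6, 58.9 and 43.5 CPM in *mdf-1* and at 22.6, 24.5 and 21.1 CPM in WT. It was higher in every mutant library, with a log2 fold change of 1.23 ± 0.12 (SE) and an adjusted p of 9.17e-05. *FLS2*, the flagellin receptor, was at 35.4, 29.3 and 22.9 CPM in *mdf-1* and at 14.1, 18.8 and 13.8 CPM in WT, again apart, with an adjusted p of 0.00575. *BAK1*, the co-receptor that CRK28 binds, overlapped between the groups (log2 fold change of 0.07, 95% confidence interval from -0.09 to 0.24). *EFR*, the receptor for the elongation factor Tu of bacteria, and *SOBIR1*, the adaptor kinase of receptor-like proteins, rose by 1.32 and 1.09 on the log2 scale, and *RLP23*, a receptor-like protein that pairs with SOBIR1, by 4.21 (adjusted p of 0.00686, 7.11e-04 and 2.20e-05).

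Of the 8 tested genes for NADPH oxidases, 5 were lower (62.5%, against 33.9% of all tested genes) and none was higher, with a median log2 fold change of -1.43 (2 more, *RBOHH* and *RBOHJ*, had at most 1 count in a library). *RBOHC*, the oxidase of root hair growth, was at 4.27, 2.68 and 2.47 CPM in *mdf-1* and at 23.5, 18.7 and 22.6 CPM in WT. This decrease (log2 fold change of -2.78, adjusted p of 3.35e-05) went with that of the root hair markers given above, and a part of the lower root share in it was not tested. *RBOHA* and *RBOHG* fell by 3.76 and 3.75 on the log2 scale, and *RBOHB* by 1.85 (adjusted p of 3.22e-05). *RBOHI* was lower as well, with a 2.02-fold difference and an adjusted p of 0.00214. The oxidases *RBOHD*, *RBOHE* and *RBOHF* did not pass the test, with log2 fold changes of -0.05, -0.10 and -0.07.

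Of 11 tested genes for SA synthesis and response, 4 were higher (36.4%, close to the 33.5% of all tested genes) and none was lower, with a median log2 fold change of 0.02. *SARD1*, a transcription factor that activates SA synthesis, was at 11.4, 8.54 and 6.29 CPM in *mdf-1* and at 0.966, 0.746 and 0.603 CPM in WT. It rose by 3.50 on the log2 scale with an adjusted p of 2.33e-05. The pathogenesis-related gene *PR2* was at 59.4, 31.6 and 30.0 CPM in *mdf-1* and at 1.03, 0.927 and 0.321 CPM in WT. It rose by 5.74 on the log2 scale (adjusted p of 2.91e-04), and *PR5* by 2.20 (0.00111). *PR1*, the common marker of SA signaling, was at 122, 82.4 and 91.8 CPM in *mdf-1* and at 9.31, 0.282 and 0 CPM in WT. Its WT libraries thus differed widely, and its log2 fold change of 4.96 (adjusted p = 0.0317) lost the call without any 1 of the *mdf-1* replicates (adjusted p from 0.0607 to 0.0660) and without replicate 2 (0.0757) or 3 of WT (0.0566). *ICS1*, the enzyme that makes the SA precursor, was at 16.7, 14.8 and 17.0 CPM in *mdf-1* and at 17.1, 17.8 and 18.0 CPM in WT, and did not pass the test (log2 fold change of -0.13, 95% confidence interval from -0.29 to 0.04). With scaling by total counts, 4 genes of this list were lower besides the 4 higher, and without replicate 1 of *mdf-1*, 4 were lower.

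**Figure D5:**
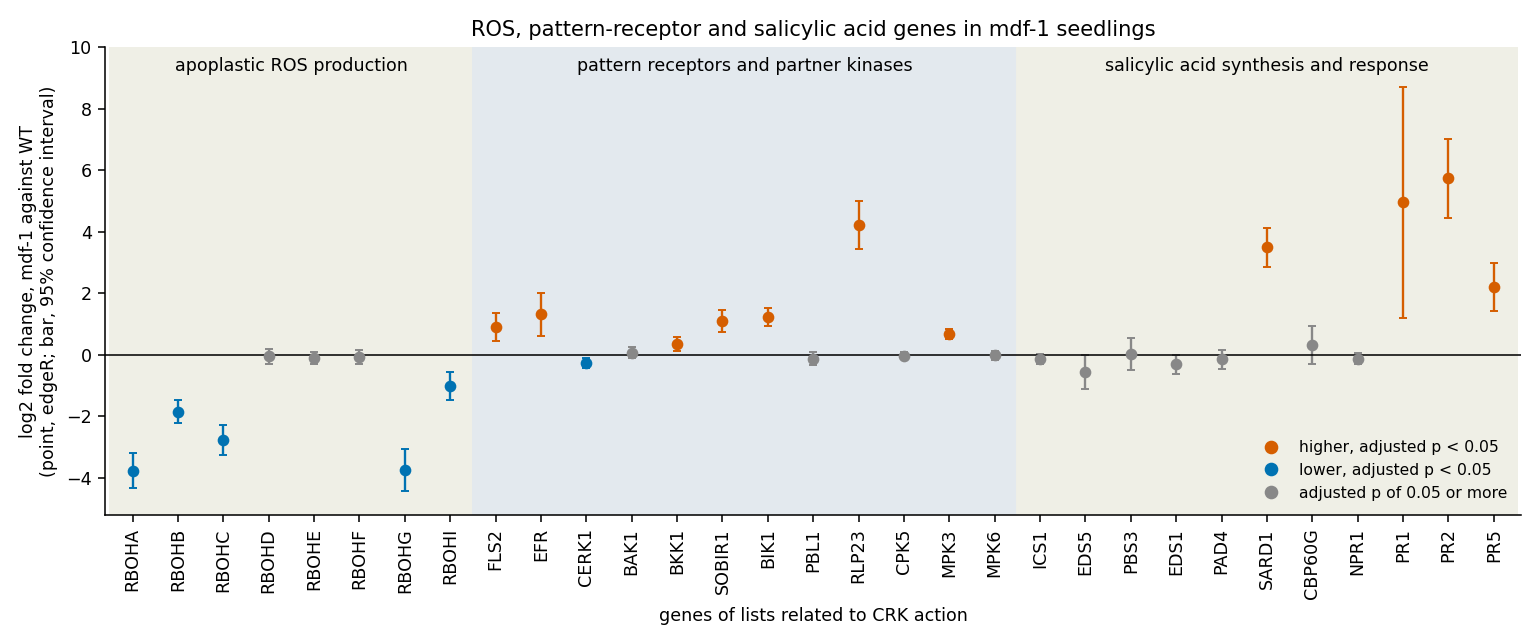
Log2 fold change in *mdf-1* against WT (point, edgeR, with the 95% confidence interval as bar; 3 libraries per genotype) of the tested genes of 3 lists, for NADPH oxidases, for pattern receptors with their partner kinases and for SA synthesis and response. The lowest values are those of *RBOHA* and *RBOHG*, -3.76 and -3.75, and the highest are those of *PR2* and *PR1*, 5.74 and 4.96, the latter with a 95% confidence interval from 1.21 to 8.71.

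Of 4 tested markers of leaf senescence, 2 were higher and none was lower. *SAG13* was at 481, 442 and 82.6 CPM in *mdf-1* and at 8.55, 10.7 and 7.26 CPM in WT, and *SAG101* at 32.7, 27.9 and 24.0 CPM against 8.25, 8.28 and 8.03. Both were higher in every mutant library, with log2 fold changes of 5.25 and 1.78 and adjusted p of 0.00431 and 7.49e-06. *SEN1* and *ORE1* overlapped between the groups, and *SAG12* had 1 count in all libraries together. As in most CRKs, the levels of *SAG13* and *SAG101* were highest in replicate 1 of *mdf-1* and lowest in replicate 3.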

How the data were processed

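RNA-seq libraries were made with the NEBNext Ultra RNA kit. Per the labels, the submitters' processing notes name fastp, HISAT2 and featureCounts with the TAIR10 genome. The authors deposited raw counts per gene and FPKM values per library; the handling of reads shared by genes or strands is not given in the sources used here. Columns of the authors' own comparison (size-factor counts, fold changes and p-values) were not used. The members and gene lists were chosen with earlier results of these data known. Per-library counts were to be given for members with an adjusted p below 0.05 and a log2 fold change of at least 1, the 5 most abundant in WT, and CRKs with known roles. Others were added after their values were seen.

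Counts were filtered with filterByExpr (minimum 0.216 CPM), scaled by TMM and compared by edgeR 4.0.16 (robust glmQLFit, then glmQLFTest) under R 4.3.3, genotype being the only term. CPM values are TMM-scaled. FPKM values served for levels only and entered no test. A ratio of summed counts carries a counting interval, which covers counting error only, as do limits from 3 counts. The fit was also run on simulated counts with the same dispersion for every gene and few changed genes. These settings differ from the data, so that run checked the code and not the calls given here. Alternatives were DESeq2 1.42.0, RLE, upper-quartile and total-count scaling, other filters, a stricter threshold, protein-coding genes only, a replicate block and each library left out. P-values set the difference between genotypes against a variation estimated from 3 biological replicates per genotype and moderated across genes.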

Additional observations from a re-analysis of the deposited data

How the results depend on the processing

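Of the 32 called CRKs, 26 kept their call in each of the 14 alternative fits that tested them, and no called CRK changed sign. Calls at an adjusted p below 0.01 gave 20 CRKs higher and 4 lower. With 10 counts in every library the median log2 fold change of the tested CRKs was 0.64, and with each library left out it ranged from 0.68 to 1.21, with 22 to 24 CRKs higher and 6 or 7 lower. The replicate numbers did not pair the libraries (correlations of their deviations from the group means of 0.044, -0.003 and 0.08), and not every library correlated best with its own number. With a replicate block 23 CRKs were higher and 8 lower, *CRK41* (adjusted p = 0.0527), AT4G11521 (0.0532) and, of the salicylic acid genes, *PR1* (0.0732) did not pass, *CRK4* did (0.0311), and the block also gave 1 higher secretory protein and 2 lower salicylic acid genes.

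Among the related lists, lower salicylic acid genes numbered 1 with DESeq2, 3 with upper-quartile scaling and 4 with total counts (0 to 4 with a library left out), against 0. Total counts also gave 3 lower pattern-receptor genes against 1, 1 lower photosynthesis gene against 0 and 1 higher secretory protein against 2. At an adjusted p below 0.01 there were 12 higher leucine-rich repeat receptor kinases against 20, 0 lower pattern-receptor genes against 1 and 1 higher secretory protein. With a library left out, the higher secretory proteins ranged from 1 to 2 and the higher photosynthesis markers from 3 to 5. The cause of these shifts was not tested. Genes with a few counts in WT carry wide counting intervals, and 3 CRKs were below the depth needed for a test.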

Other observations

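A few genes that the wording of the rule left out are given here as values, chosen after their values were seen. Whether they belong to the CRK family was not examined, so the 41 genes may not be the whole family. AT4G11890, a gene on chromosome 4 that the table describes as a protein kinase without the searched words, was at 713, 396 and 390 counts in *mdf-1* and at 66, 149 and 63 in WT. Its groups did not overlap, and its log2 fold change was 2.67 ± 0.45 (SE) with an edgeR adjusted p of 0.00259. *EMB1290* (AT4G23250), which lies inside the largest CRK array, was at 2344, 2353 and 2088 counts in *mdf-1* and at 1443, 1341 and 1578 in WT, a 1.85-fold difference without overlap. *RKF2*, listed as a coding sequence that is not translated, had no count in any library.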
